A study of Strongylocentrotus purpuratus with 5 samples.

Results

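Of the 238838 regions of open chromatin called in 12 h embryos of the purple sea urchin, 25126 (10.5%) had no peak call at 20 h although an open 20 h region lay at most 1000 bp away. These 25126 are called flank regions here. A flank region shared no base with any region of the pooled 20 h list and none with any peak of the 3 separate 20 h libraries, and the nearest pooled 20 h region on the same scaffold was its neighbour. The flank regions were therefore chosen by measured values, those of the peak lists of both stages, so their absence at 20 h and their closeness to a 20 h region are not results, and no comparison below carries a test.

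The data are ATAC-seq peak lists of *Strongylocentrotus purpuratus* embryos, which the labels call hatching blastulae at both stages and for which they name no treatment or genotype. At 20 h there were 3 libraries of 2 biological replicates. Technical replicates 1 and 2 of biological replicate 1 are called libraries 1a and 1b here, and the single library of biological replicate 2 is called library 2. At 12 h there were 2 biological replicates, used here only as 1 pooled list. For 20 h replicate 1 the nuclei came from a different, published preparation, while a density gradient was used for 20 h replicate 2 and for the 12 h samples, so that preparation and replicate cannot be told apart at 20 h. Whole embryos were used, so that fewer cells with an open region and less opening per cell cannot be told apart. By the study's methods more reads were mapped for 12 h than for 20 h embryos, and the 12 h libraries were read from both ends, as was library 1a, whereas the other 20 h libraries were read from a single end. Of the 20 h libraries, 1b had the most and 2 the fewest mapped reads in the study's quality report. Library 1b also had by far the largest share of duplicate reads there. The order of the libraries stayed the same once duplicates were removed. The lists hold no read counts, so the depth behind each region is not known from them.

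In ATAC-seq a transposase inserts sequencing adapters where DNA is not wrapped in nucleosomes, and stretches with many insertions are called as peaks. Open stretches include promoters and enhancers, the elements that transcription factors bind. In the study most ATAC-seq peaks did not overlap an element predicted from transcription, so a region here need not be such an element. During blastula stages the sea urchin embryo turns on the regulatory genes that set up its skeletogenic, endodermal, neural and ectodermal territories, and such genes are often flanked by several open elements within a short distance. The question set by the design was how the open chromatin of 12 h embryos relates to that of 20 h embryos. For the flank regions it becomes what the open chromatin beside a region that is no longer called looked like at both stages.

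In the pooled 20 h list the 258515 regions were typically 252 bp long, and in the pooled 12 h list 325 bp (medians). The libraries held 248700 peaks in 1a, 300000 in 1b and 160654 in 2. The list with 300000 peaks sits at the largest number the authors kept. The same limit applied to the pooled lists before their peaks were merged. Of the 12 h regions, 152697 shared a base with a pooled 20 h region and are said to stay open. Another 38832 overlapped no pooled 20 h region but did overlap a library peak. The remaining 47309, which is 19.8% of the 12 h list, had neither and are called silent. The flank regions made up 53.1% of the silent regions, and the other 22183 silent regions lay over 1000 bp from any pooled 20 h region or on a scaffold with none.

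The flank regions were short. Their median length was 223 bp (quartiles 183 and 299 bp), against 390 bp (268 and 581 bp) for regions that stay open, and their range was 150 to 1727 bp. Lengths under 200 bp were found in 36.7% of flank regions and in 8.72% of regions that stay open, whereas lengths over 500 bp were found in 4.17% and 33.6%. Exactly 150 bp, the shortest length in the list, was the length of 3.43% of flank regions and of 0.437% of regions that stay open. Length did not set the flank regions apart from the silent regions farther away, which had a median of 216 bp. The share of 12 h regions that were flank regions was 23.2% at 150 to 199 bp, 16.6% at 200 to 249 bp, 8.27% at 300 to 399 bp and 0.868% from 700 bp on. Since length differed so much between these groups, regions that stay open were weighted to the flank regions' lengths in classes of 25 bp wherever a value below is said to hold at like lengths.

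**Figure D1:**
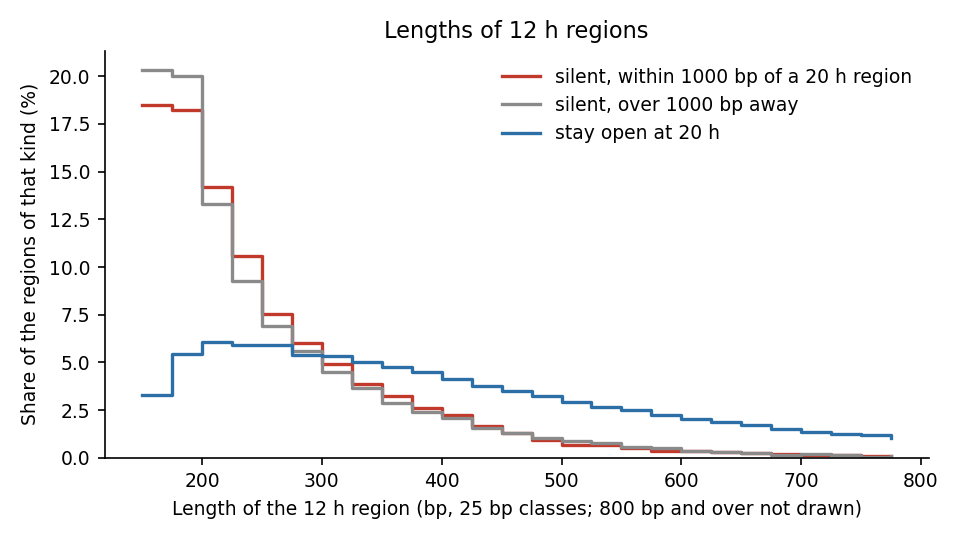
Share of 12 h regions (vertical axis, %) in each 25 bp class of length (horizontal axis, bp) for the 25126 silent regions within 1000 bp of a 20 h region, the 22183 silent regions farther away and the 152697 regions that stay open. Both silent curves peak below 200 bp and lie almost on each other, whereas the curve of regions that stay open is broad, with a median of 390 bp.

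The 5 longest flank regions show what the rare long cases look like. The longest spanned 1727 bp on scaffold 2990 (15740 to 17466), and its neighbour, 153 bp to the right, was only 207 bp long and not open at 12 h. A region of 1692 bp on scaffold 1169 (79933 to 81624) lay 178 bp from a neighbour of 348 bp that was open at 12 h. On scaffold 381 (135594 to 136816) a region of 1223 bp had open 20 h regions on both sides, 640 bp to the left and 321 bp to the right, and both were open at 12 h as well. The last 2 were each 1218 bp long. One, on scaffold 143 (165802 to 167019), lay 115 bp from a neighbour open only at 20 h, and the other, on scaffold 186 (497530 to 498747), lay 956 bp from a neighbour open at both stages. All 5 were longer than the neighbour, as their choice by length favours, and 2 of the 5 neighbours were open only at 20 h.

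The distance from a flank region to its neighbour had a median of 442 bp (quartiles 241 and 676 bp). Regions that stay open and have another pooled 20 h region within 1000 bp numbered 93888, and at like lengths their distance to it had a median of 415 bp (222 and 647 bp). The flank regions thus lay slightly farther from the open neighbour, but the rule itself bears on this. A flank region may touch no 20 h library peak, a bar that regions that stay open do not face. With the bar 1561 regions lay below 100 bp and 23565 at 100 to 1000 bp. Without it there were 3819 and 45042, so the bar removed a larger part of the regions close by. The longer distance is therefore not read as a trait of flank regions, and its median was not measured without the bar. The shares given next depend on the bar in the same way. Of the 12 h regions with a 20 h neighbour less than 100 bp away, 14.8% were flank regions once lengths were evened out. This share was 17.6% at 200 to 299 bp, 18.4% at 400 to 499 bp and 19.6% at 900 to 1000 bp.

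The limit of 1000 bp cut through a smooth distribution. There were 21, 13 and 21 silent regions at 999, 1000 and 1001 bp. In steps of 100 bp there were 1721 at 901 to 1000 bp and 1422 at 1001 to 1100 bp. Just inside lay a region of 282 bp on scaffold 65 (299293 to 299574), with a neighbour open at 12 h and found in all 3 libraries at folds of 3.04, 3.30 and 2.62 in libraries 1a, 1b and 2. Just outside, at 1001 bp, lay a region of 259 bp on scaffold 20 (1335208 to 1335466), whose neighbour had folds of 3.13, 3.43 and 3.93 in the same libraries and was open at 12 h too. The other 2 regions named on each side of the limit had neighbours with peaks in 1 or 2 libraries, so that nothing in these 6 changed at the limit itself.

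The neighbours were mostly open already at 12 h. Of the 25126 flank regions, 16649 had a neighbour that overlapped a 12 h region, which is 66.3% (95% Wilson interval 65.7 to 66.8, counting error only). The share for regions that stay open was 65.5% at like lengths, so that the difference was 0.767 points. An interval of 0.659 points on each side came from counting alone. It took each region that stays open as counting equally, without its weight, and is therefore too narrow. Among all pooled 20 h regions 63.6% overlapped a 12 h region, so that a neighbour of a flank region was open at 12 h about as often as any 20 h region. A flank region was thus seldom the only 12 h opening in its surroundings. Its nearest other 12 h region lay at a median of 465.5 bp, and for 81.7% of flank regions it lay within 1000 bp, against 81.0% for regions that stay open at like lengths and 64.8% for all 12 h regions. That nearest 12 h region was one that stays open for 76.4% of flank regions and for 80.2% of regions that stay open, and it was itself silent for 13.0% and 10.5%.

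Support for the neighbours in the 20 h libraries was ordinary. A neighbour counted as found in both biological replicates when it overlapped a peak of library 2 and of at least 1 of libraries 1a and 1b. This held for 34.5% (33.9 to 35.0) of the flank regions' neighbours, against 36.3% beside regions that stay open, a difference of -1.83 points that was 0.0564 points without the bar by library peaks described below, while 34.4% of all pooled 20 h regions met it. A peak in all 3 libraries was found for 5106 of the neighbours (20.3%), beside 20.6% of all pooled 20 h regions, and a peak in none for 689 (2.74%). Library 1a had a peak on 64.4% of the neighbours of flank regions and on 65.3% of those of regions that stay open. In library 1b these shares were 75.8% and 78.1%, and in library 2 they were 38.0% and 39.5%. The shares beside flank regions were lower in all 3 libraries, with differences of -2.31 to -0.959 points. The list of library 2 is the shortest of the 3, and both shares were lowest there.

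Fold enrichment is the peak caller's ratio of insertions in a peak to the local background, and the value of a neighbour was that of its overlapping peak with the best p in each library. Where a peak was present, the median fold of the neighbours of flank regions was 3.06 and 2.93 in libraries 1a and 1b and 2.92 in library 2. For all pooled 20 h regions the medians were 3.11, 2.99 and 2.92. Folds come in steps. In library 2 a single value, 2.92, was carried by 1127 of the 9543 neighbours with a peak (11.8%), so that medians in that library hide small shifts and means on the log2 scale were compared instead. The mean log2 fold of the neighbours of flank regions was 1.61 in replicate 1, averaged over its technical replicates, and 1.65 in replicate 2, against 1.64 and 1.69 beside regions that stay open at like lengths. The difference was -0.02 and -0.05 in libraries 1a and 1b and -0.04 in library 2, with a mean over the biological replicates of -0.04 and an SD over the 3 libraries of 0.01. The neighbours of flank regions were thus a little weaker in every library at like lengths, whereas without evening out the lengths the mean difference was 0.00504, with the opposite sign.

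**Figure D2:**
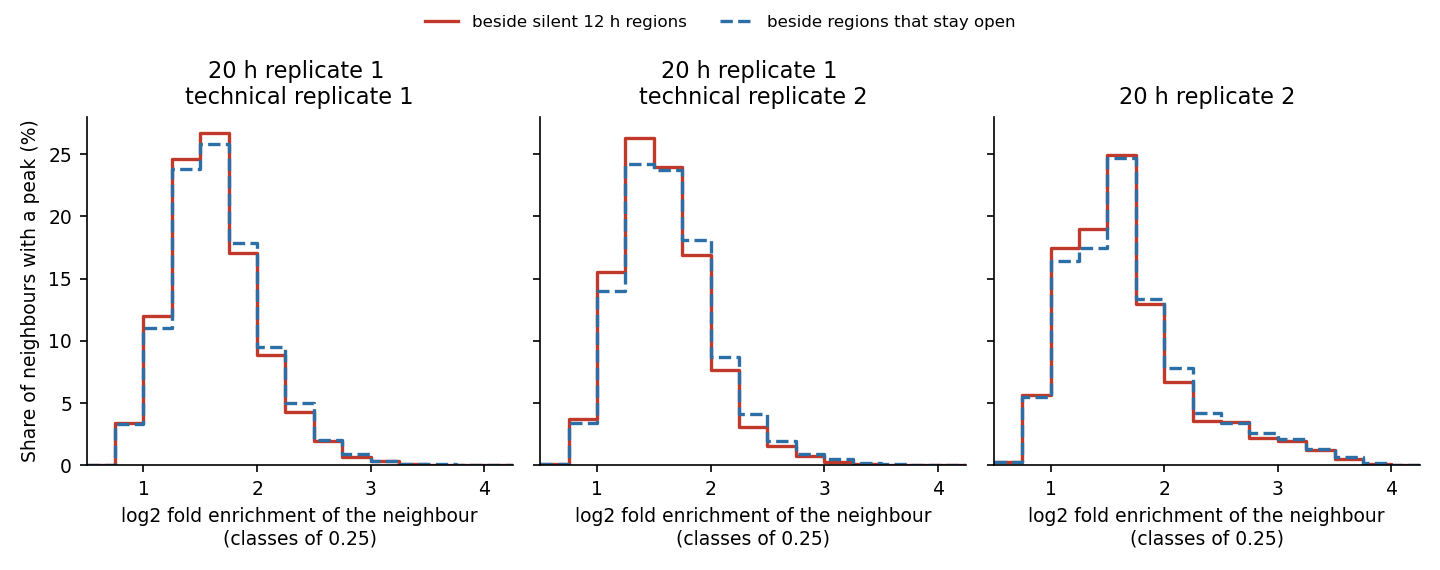
Distribution of the log2 fold enrichment (horizontal axis, classes of 0.25) of 20 h neighbours with a peak in each 20 h library, as a share of those neighbours (vertical axis, %), for neighbours of flank regions (solid) and of regions that stay open at like lengths (dashed). The curves nearly coincide, with mean differences of -0.02, -0.05 and -0.04 from left to right.

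The values differed at short range, where the rule itself bears on them. A flank region may not touch any 20 h library peak, so that a strong neighbour whose library peaks reach beyond its pooled edge removes the 12 h regions next to it from the flank regions, while regions that stay open face no such bar. Where the neighbour lay less than 100 bp away (1561 flank regions), it was open at 12 h in 46.6% (44.1 to 49.1) of cases, against 51.9% beside regions that stay open. It was found in both biological replicates in 28.8% (26.6 to 31.1) of cases, against 39.5%. From 300 bp on, the share open at 12 h lay between 67.7% and 70.6% in each class of 100 bp beside flank regions and between 67.6% and 69.5% beside regions that stay open. Support in both replicates beside flank regions lay between 33.2% and 37.9% over the same classes, and between 34.4% and 36.0% beside regions that stay open. At 600 to 699 bp and at 900 to 1000 bp the flank regions had the higher share. Between these ranges the support was 33.8% against 37.4% at 100 to 199 bp and 34.7% against 37.4% at 200 to 299 bp, so that the difference was largest below 100 bp.

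**Figure D3:**
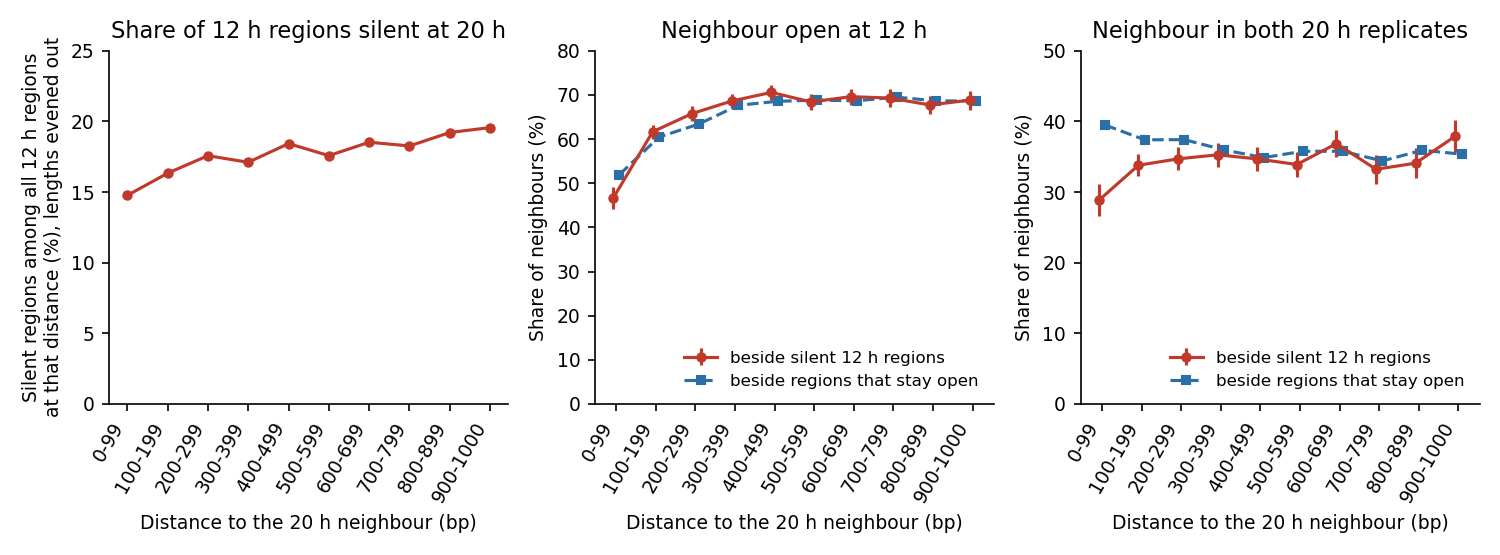
Against the distance between a 12 h region and its 20 h neighbour (horizontal axis, classes of 100 bp), the left panel gives the share of 12 h regions that were flank regions, the middle panel the share of neighbours open at 12 h and the right panel the share of neighbours found in both 20 h biological replicates (vertical axes, %). Circles are flank regions with 95% Wilson intervals and squares are regions that stay open at like lengths. The right panel shows 28.8% against 39.5% below 100 bp, a gap that was smaller without the bar by library peaks, and curves that run close together and cross from 300 bp on.

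The bar was measured by loosening it, a choice made after the data were seen. With every 12 h region outside the pooled 20 h list admitted, whatever its library peaks, 3819 regions lay below 100 bp. Support of their neighbours in both replicates was then 33.6% (32.1 to 35.1), against 39.1% beside regions that stay open. The difference below 100 bp was thus -5.55 points without the bar and -10.8 points with it, each set against regions that stay open weighted to the lengths within that range. At 100 bp or more it was 0.497 points without the bar and -1.23 points with it. The share of neighbours open at 12 h moved less, with a difference below 100 bp of -5.89 points without the bar and -5.58 points with it.

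Support fell towards the shortest distances beside both kinds of region. For flank regions 30 of 163 neighbours (18.4%, 13.2 to 25.1) were found in both replicates at 0 to 24 bp. At 75 to 99 bp 207 of 638 were (32.4%, 28.9 to 36.2). Beside regions that stay open, which face no bar, the shares were 29.7% and 41.6% at like lengths. The difference was -11.3 points at 0 to 24 bp and -9.15 points at 75 to 99 bp. The bar bears on flank regions alone, so their shares describe the chosen regions only. The same holds for single libraries below 100 bp, where a peak of library 2 lay on 32.8% of the neighbours of flank regions and on 43.3% of those of regions that stay open. The difference in library 2 below 100 bp was -10.7 points with the bar and -5.66 points without it, in library 1a -2.93 and -2.42 points, and in library 1b -6.13 and -3.64 points. By the study's quality report library 2 also had the fewest reads, so that depth, preparation and embryos cannot be told apart there.

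At short distances many flank regions and their neighbours formed side by side pairs, in which a region open only at 12 h lay next to a region open only at 20 h and each was the other's nearest region of the other stage. There were 6490 such pairs, 25.8% of flank regions. They made up 51.4% of flank regions below 100 bp, 35.5% at 100 to 199 bp, 25.8% at 200 to 499 bp and 19.1% at 500 to 1000 bp. Regions that stay open had a 20 h only neighbour in the same mutual position about as often, in 47.1%, 36.4%, 27.3% and 19.6% of cases at like lengths in these classes and in 27.0% of cases in all, so such pairs are not particular to flank regions. In the 802 pairs below 100 bp the 12 h member had a median length of 224.5 bp and the 20 h member one of 199.5 bp, and the 20 h member was found in both replicates in 124 pairs (15.5%). A pair with strong 20 h support lay on scaffold 379, where a flank region of 208 bp (399007 to 399214) was followed after 45 bp by a 20 h only region of 209 bp (399260 to 399468) with folds of 3.75 and 5.58 in libraries 1a and 1b and 4.38 in library 2. No other 12 h region lay within 1000 bp of that flank region.

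In 3 cases, named because of their distance of 0 bp after values were seen, the flank region and its neighbour touched without sharing a base. On scaffold 174 a flank region of 158 bp (54837 to 54994) adjoined a 20 h region of 674 bp that was open at 12 h, with folds of 2.76 and 3.24 in libraries 1a and 1b and 3.57 in library 2. On scaffold 2547 a flank region of 226 bp (75915 to 76140) adjoined one of 308 bp that was open at 12 h and had a peak in replicate 1 alone. On scaffold 627 a flank region of 321 bp (289325 to 289645) adjoined a 20 h only region of 320 bp, found in library 1a alone. In the first of these the 12 h counterpart of the neighbour ended 161 bp short of the flank region.

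Whether the neighbour was open at 12 h went with its strength and length. The 16649 neighbours open at both stages had a median length of 286 bp, were found in both replicates in 43.0% of cases and had median folds of 3.16 and 3.01 in libraries 1a and 1b and 2.92 in library 2. The 8477 neighbours open only at 20 h had a median length of 200 bp, a share of 17.7% in both replicates and median folds of 2.87, 2.60 and 2.68 in those libraries. All pooled 20 h regions split the same way, with 44.9% of regions open at both stages and 16.1% of 20 h only regions found in both replicates. The lengths of the flank regions themselves hardly differed, with medians of 222 bp beside neighbours open at 12 h and 225 bp beside 20 h only neighbours. Distances were 456 and 402 bp.

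The strongest neighbours open at both stages were far above these medians. On scaffold 1909 a flank region of 178 bp (107919 to 108096) lay 426 bp from a neighbour of 618 bp (108523 to 109140) with folds of 19.9 and 17.2 in libraries 1a and 1b and 18.9 in library 2, a mean of 18.7 ± 0.272 (SD, n = 2 biological replicates). The 12 h counterpart of that neighbour (108495 to 109135) ended within 5 bp of it on the far side. One neighbour on scaffold 598 (30148 to 31053) had flank regions on either side, of 382 bp at 808 bp to the left and of 179 bp at 333 bp to the right. Its folds were 12.8 and 12.0 in libraries 1a and 1b and 13.5 in library 2. It changed little between the stages, being 906 bp long at 20 h, with a 12 h counterpart from 30093 to 31057.

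Others of this kind lay on scaffolds 1117, 1124 and 122, with mean folds of 11.6 ± 0.036, 11.2 ± 0.598 and 11.4 ± 3.57 (SD, n = 2). The small SD on scaffold 1117 hides a spread between technical replicates. Libraries 1a and 1b had 14.0 and 9.35 there, and only their average lay close to the 11.6 of library 2. On scaffold 122 library 2 reached 13.9, while libraries 1a and 1b had 8.14 and 9.54, so that the replicates disagreed most there. Among neighbours open only at 20 h, the strongest lay on scaffold 116 (5568 to 6313), 683 bp from a flank region of 264 bp, with folds of 6.43 and 4.29 in libraries 1a and 1b and 4.88 in library 2. Those on scaffolds 1430, 379 and 19 had mean folds of 4.37 ± 1.02, 4.53 ± 0.201 and 4.31 ± 1.97. All 4 stood below all 6 cases with a neighbour open at 12 h in mean fold.

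**Figure D4:**
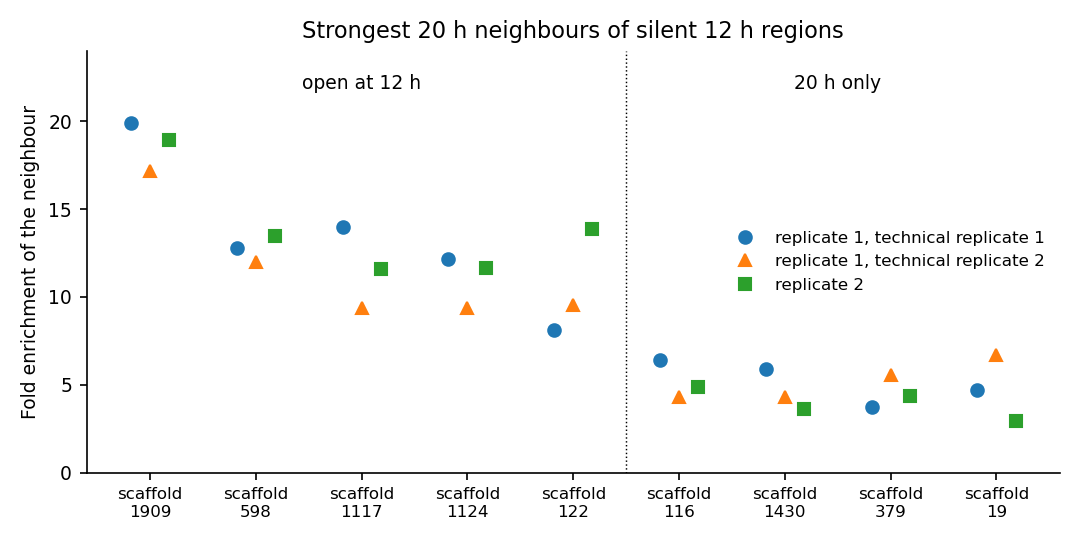
Fold enrichment (vertical axis) of the strongest 20 h neighbours of flank regions in each of the 3 libraries, 5 neighbours open at both stages at the left and 4 open only at 20 h at the right (horizontal axis, scaffold). The left values lie between 8.14 and 19.9 and the right values between 2.92 and 6.71, and scaffold 122 shows the widest gap between replicates among the left ones.

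Comparing a neighbour with the 20 h region into which a region that stays open runs gave differences of mixed sign. That 20 h region was found in both replicates for 33.8% of regions that stay open at like lengths, against 34.5% for the neighbours of flank regions. Library 1a had a peak on 64.4% of the neighbours and on 59.6% of these 20 h regions, and library 1b on 75.8% and 79.6%, so the libraries moved in opposite directions. In library 2 both shares were 38.0% and 37.8%. The log2 fold of the neighbours differed from it by -0.02 ± 0.02 (SD, n = 2 biological replicates). Technical replicates 1 and 2 of replicate 1 gave -0.01 and -0.05 and library 2 gave 0.00220, so the sign was not shared by the replicates. The neighbours were longer on average, at 310 bp against 290 bp.

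Regions open at both stages can shrink at the side that faces a lost region or at the far side, and this was measured where a neighbour and a 12 h region overlapped each other and nothing else. There were 14774 such neighbours beside flank regions and 54058 beside regions that stay open. The 12 h counterpart was longer than the 20 h neighbour in 71.3% of cases beside flank regions and in 66.3% beside regions that stay open at like lengths. Median lengths beside flank regions were 284 bp at 20 h and 367 bp at 12 h, and beside regions that stay open 292 and 353 bp. The neighbours of flank regions were thus narrower at 20 h than at 12 h more often, by 4.97 points. Evening out the neighbour's length in place of the flank region's lowered this to 2.19 points. The bar by library peaks bears on flank regions alone here too. Neither this excess nor the reaches given next were measured without it.

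On the far side the 12 h counterpart reached past the 20 h edge by a mean of 44.4 bp beside flank regions and 37.0 bp beside regions that stay open. Evening out the neighbour's length in place of the flank region's brought the value beside regions that stay open to 43.6 bp. With no lengths evened out it was 42.0 bp. The size of this gap thus depended on which length was evened out. Towards the flank region the mean reach was 33.4 bp, against 20.4 bp towards a region that stays open. The reach on the facing side is limited by the 12 h region itself, since 2 regions of 1 list cannot overlap, and it followed the distance. It was -63.1 bp below 100 bp, where the 12 h counterpart stopped short of the 20 h edge, and 57.4 bp at 700 to 1000 bp. The far side has no such limit. There the reach beside flank regions was 56.1 bp below 100 bp, 44.0 bp at 200 to 399 bp and 39.2 bp at 700 to 1000 bp, and it was above that beside regions that stay open (37.4, 37.3 and 32.8 bp) in each of these classes. The gap between the flank region and the neighbour at 20 h had a median of 459 bp, against 414 bp between the flank region and the counterpart at 12 h. Beside regions that stay open the gap was wider at 20 h as well, with medians of 439 and 408 bp.

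**Figure D5:**
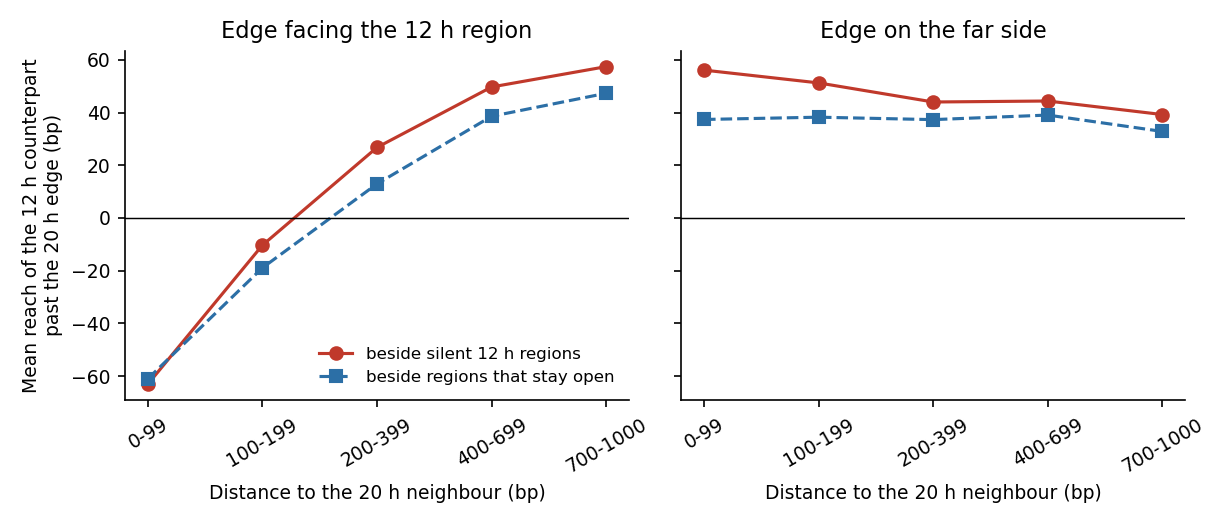
Mean distance in bp by which the 12 h counterpart reached past the edge of the 20 h neighbour (vertical axis; below 0 it stopped short), on the side facing the 12 h region (left) and on the far side (right), by distance between the 12 h region and the neighbour (horizontal axis, bp). Circles are 14774 neighbours of flank regions and squares 54058 neighbours of regions that stay open at like lengths. On the far side the circles lie above the squares in all 5 classes, for example at 39.2 against 32.8 bp from 700 to 1000 bp, but over all classes the gap was only 44.4 against 43.6 bp once the neighbours' lengths were evened out.

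The neighbours were also compared by the length of the flank region. At 150 to 199 bp 67.3% (66.4 to 68.3) of 9223 flank regions had a neighbour open at 12 h, against 65.1% of regions that stay open in the same class. At 300 to 399 bp the shares were 64.7% and 66.0%, and at 500 bp or more (1057 flank regions) they were 62.6% (59.7 to 65.5) and 65.8%. Support in both replicates was 35.4% against 36.6% in the shortest class and 31.5% (28.8 to 34.4) against 37.6% in the longest. The classes between gave 33.7%, 35.6%, 33.4% and 33.5% for flank regions, against 35.1%, 36.3%, 37.0% and 38.5% for regions that stay open. The shares for flank regions alone showed no steady trend with length. Their shortfall against regions that stay open was larger in each class from 300 bp on than in those below it. Within these broad classes lengths were not evened out, which matters most for the longest, where regions that stay open run to far greater lengths.

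A flank region could have open 20 h regions within 1000 bp on both sides. This was so for 5409 flank regions (21.5%, 21.0 to 22.0), against 22.8% of regions that stay open at like lengths and 22.3% of them without regard to length. In these 5409 the sides were both open at 12 h in 2420 cases (44.7%), 1 of them was in 2326 (43.0%) and neither was in 663 (12.3%). The span between the flanking 20 h regions had a median of 1241 bp. After the region on scaffold 381, the longest with both sides was one of 1114 bp on scaffold 228 (332806 to 333919). It was followed by regions of 1051 bp on scaffold 1077 (52441 to 53491), of 1013 bp on scaffold 25 (533711 to 534723) and of 993 bp on scaffold 48 (470930 to 471922). On scaffold 1077 the open 20 h regions lay only 75 bp to the left and 128 bp to the right, and the left one was 20 h only while the right one was open at 12 h. Most neighbours stood beside a single flank region. Of 23798 distinct neighbours, 9.21% of the pooled 20 h list, 22519 (94.6%) had 1 flank region, 1231 had 2, 47 had 3 and 1 had 4.

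Peaks of the separate libraries often came closer to a flank region than the pooled edge of its neighbour. Libraries 1a and 1b had a nearer peak for 29.6% and 34.4% of flank regions, library 2 for 20.0%, and any of the 3 for 17175 (68.4%). In 11080 of these (64.5%) the nearest peak overlapped the neighbour itself, so that it was the neighbour's own peak reaching past the pooled edge. In 5886 (34.3%), which is 23.4% of flank regions, it overlapped no pooled 20 h region. A peak of any library lay within 100 bp of 14.5% of flank regions.

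Flank regions were spread over the genome. They lay on 3180 of the 7510 scaffolds that held a 12 h region. Among the 313 scaffolds with at least 200 12 h regions, they made up between 5.39% and 17.4% of these, with a median of 11.0%. Scaffolds 3, 5 and 10 held most, with 91, 85 and 82, which were 11.0%, 11.1% and 10.6% of their 12 h regions. Scaffold 502 had the highest share, 17.4% (12.9 to 23.0), before scaffold 450 with 16.2% (12.1 to 21.4) and scaffold 946 with 16.1% (12.4 to 20.6). These 3 were picked as the highest of 313, and all 3 intervals overlap.

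The study also lists 389 cis-regulatory modules of 37 genes, stretches of DNA around developmental genes that were assayed with reporter constructs, by their positions in version 3.1 of the genome. Of the 12 h regions, 563 shared a base with a module. Of these, 43 were flank regions (7.64%), 406 stayed open (72.1%) and 68 were silent (12.1%). Regions in modules were long, with a median of 397 bp, and among all 12 h regions of those lengths 8.09% were flank regions. The 43 had a median length of 233 bp and lay 96 to 920 bp from the neighbour, with a median of 537 bp. Their neighbour was open at 12 h in 35 of 43 cases (81.4%), against 66.3% of all flank regions. This share rests on few cases, and neighbours of regions that stay open in modules were not compared. The neighbour was found in both replicates in 15 (34.9%), against 34.5% of all, and 13 had a neighbour with a peak in all 3 libraries. The modules of 22 genes held a flank region. Lim1, a LIM homeobox gene, had 5 among 43 regions, Dach (a dachshund family gene) 4 among 46 and FoxN23 (a forkhead gene) 4 among 37. Myc, the growth regulator, had 3 among 10, a further 9 genes had 2 and 9 had 1. The modules of 15 genes held none, among them SoxB1, whose 7 regions all stayed open, GataC, where 19 of 20 did, and the TGF-beta ligand gene Univin with 8 of 11. At the share of 7.64% over all modules, few or no flank regions would fall among so few regions. Holding none is therefore not read as a trait of these genes.

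Among homeobox genes, the longest flank region in a Lim1 module (411 bp, scaffold 857, 183278 to 183688) lay 337 bp from a neighbour that was also 411 bp long and open at 12 h, with folds of 3.31 and 2.68 in libraries 1a and 1b and 3.63 in library 2. In a module of Nk22 a flank region of 165 bp (scaffold 901, 393482 to 393646) lay 521 bp from a neighbour of 758 bp with folds of 3.52, 6.80 and 4.03 in these libraries. In one of Gsc, the goosecoid gene, a region of 192 bp (scaffold 468, 356713 to 356904) lay 673 bp from a neighbour with folds of 4.31, 3.22 and 2.60. These 3 neighbours were open at both stages and seen in every library. By contrast, flank regions in modules of Nk1, Prox and Six12 (264, 278 and 524 bp) had 20 h only neighbours, 102, 553 and 169 bp away, each with a peak in a single library. In modules of Unc41 and Atbf1 the neighbours were open at 12 h, again with a peak in 1 library.

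Among forkhead genes, a flank region of 317 bp in a FoxB module (scaffold 912, 276880 to 277196) lay 432 bp from a neighbour of 716 bp with folds of 4.99 and 4.07 in libraries 1a and 1b and 4.24 in library 2. One of 265 bp in a FoxG module (scaffold 3, 2058305 to 2058569) lay 341 bp from a neighbour with folds of 3.40, 3.02 and 3.18. In modules of FoxJ1, a gene known from vertebrates for motile cilia, and of FoxN23 the flank regions were 352 and 376 bp long, and their neighbours were open at 12 h with peaks in replicate 1 alone. The FoxN23 region had a 20 h only region on its other side, 412 bp away.

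Bmp24 and Chordin act in signalling and had 1 flank region among 21 regions and 2 among 32. Univin, also a signalling gene, had none among 11. In a module of Bmp24, which encodes a BMP ligand of the TGF-beta family, a flank region of 314 bp (scaffold 344, 542806 to 543119) lay 542 bp from a 20 h only neighbour with a fold of 2.79 in library 1a alone. In a module of Chordin, whose product binds and blocks BMP ligands, one of 243 bp (scaffold 1440, 73332 to 73574) lay 600 bp from a neighbour open at 12 h with a fold of 3.21 in library 1b alone. Neither neighbour was seen in library 2.

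Of the other transcription factor genes, Nfe2 (a bZIP factor) had the strongest neighbour. Its flank region of 295 bp (scaffold 62, 381599 to 381893) lay 96 bp from a 20 h region of 1330 bp that was open at 12 h, with folds of 5.98 and 3.88 in libraries 1a and 1b and 6.78 in library 2. A Dach region of 270 bp (scaffold 1640, 163769 to 164038) lay 620 bp from a neighbour with folds of 6.12, 1.77 and 2.81 in the same libraries, the widest spread between technical replicates among the neighbours named for modules. A Dri region of 233 bp (scaffold 48, 126930 to 127162) lay 506 bp from a neighbour whose folds lay between 3.05 and 3.28. All 3 of these neighbours were open at 12 h. Flank regions in modules of Ese, an Ets family gene, Tbx23, a T-box gene, and Myc (233, 250 and 224 bp) also had neighbours open at 12 h, seen in replicate 1 alone. The longest of all flank regions in modules was one of 646 bp for Sip1 (scaffold 5, 901221 to 901866). It had 20 h regions on both sides, at 108 bp with a fold of 2.04 in library 2 alone and at 897 bp with folds of 4.42 and 4.54 in libraries 1a and 1b and 2.22 in library 2. A Shr2 region of 353 bp (scaffold 2330, 17863 to 18215) likewise had open regions on both sides, at 350 and 689 bp, both open at 12 h.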

How the data were processed

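Open chromatin of 20 h and 12 h *S. purpuratus* embryos was profiled by ATAC-seq. The authors used the ENCODE pipeline to map reads to genome version 3.1 and to call peaks with MACS2 (p threshold 0.05, at most 300000 peaks a list). The authors deposited for each stage 1 list of positions of merged regions from pooled libraries, and for each 20 h library a peak list with fold enrichment over local background (a ratio) and −log10 p. Lists of single 12 h libraries were not used here. The files hold no depth per sample. The threshold, the cap and the deeper 12 h sequencing bear on which regions are absent from a list.

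Regions overlapped when they shared 1 bp. Distance is the number of bases between regions, and the lower position was taken on a tie. Positions are 1-based. Regions that stay open were weighted to the flank regions' lengths in classes of 25 bp, with lengths from 800 bp on in 1 class. Intervals are 95% Wilson intervals, which cover counting error only, and regions on a scaffold are not independent. Errors of differences in shares left out the weights and are too narrow. Where a spread over biological replicates is given, technical replicates were averaged first. Interval and weighting functions were tested on simulated data. With 1 pooled list at 12 h no replicate test of stage was possible, and no tests were made.

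Regions named in the text were the 6 flank regions with the strongest neighbours open at 12 h and the 4 with the strongest open only at 20 h, the 5 longest, the 5 longest with both sides in reach, the longest of each gene with a flank region in a module, the 3 scaffolds with most and with the highest share, and 3 on each side of the limit. Only positions and gene names were taken from the study's table of modules. The regions and these lists were chosen with earlier results of these data known. Regions were not otherwise assigned to genes and no sequences are shown, since a genome of version 3.1 was not used here. Alternatives changed the distance limit, the library peaks that bar a region, the lengths compared, the weighting, the overlap and support rules, and left out each library. A rule with no bar by library peaks was added after the data were seen. The software was Python 3.11.15 with numpy 2.4.6, pandas 2.3.3, scipy 1.17.1 and matplotlib 3.10.9.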

Additional observations from a re-analysis of the deposited data

How the results depend on the processing

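The number of flank regions was 14410 with a distance limit of 500 bp, 6276 among 12 h regions of at least 300 bp and 41320 when only library peaks with a −log10 p of at least 3 barred a region, 48861 when none did, and 30206 to 34195 without a library. It was 35712 at 2000 bp and 21533 with no library peak within 100 bp. These counts follow from the rule itself. The excess of neighbours open at 12 h turned to -1.56 points for 12 h regions of at least 300 bp and was 2.13 points with no library peak within 100 bp, and the cause was not tested. It was 0.228 to 0.998 points without a library. The difference in support in both replicates was -2.83 points at the 500 bp limit, -0.387 points with the stricter library peaks, 0.0564 points with no bar by library peaks, -4.34 points from 300 bp and -2.65 points with lengths not evened out, and -2.03 to -1.67 points without a technical replicate of replicate 1, with the causes not tested beyond the bar itself. The difference in log2 fold was -0.0558 at 500 bp, -0.0243 at 2000 bp, -0.0528 with the stricter library peaks, -0.0470 with no bar, -0.0244 from 300 bp and 0.00504 with lengths not evened out, where its sign turned, and -0.0461 to -0.0303 without a library. Its error was taken as the SD over the 3 libraries, since the mean differences of the biological replicates happened to coincide. Libraries 1a and 1b are technical replicates, so this SD mixes technical and biological spread and is not an error over biological replicates. The excess of longer 12 h counterparts, whose alternatives were chosen after seeing the data, was 6.11 points at 500 bp, 3.11 points from 300 bp, 3.21 points with lengths not evened out and 2.19 points with the neighbour's length evened out. Every other alternative run kept these differences within their error. No paired analysis was made, since no tests were made and the 12 h stage was used as 1 pooled list. Without read counts, a weak opening at 20 h cannot be told from none. The list of 1 library ends at the cap of 300000 peaks, and the pooled lists were under the same cap before merging. A region absent from the pooled 20 h list may therefore have ranked below the cap.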
